A study of Homo sapiens with 18 samples.

Results

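Interferon-stimulated genes are the genes that cells switch on when an interferon binds its receptor. The 44 examined here were taken as a list of symbols and matched by symbol to the deposited count table. The matching used no measured value, but the list itself was drawn up with earlier results of these data known. All 44 were among the 28278 symbols of the table, and 43 of them passed the filter on low counts that left 15353 genes for testing. The exception was CMPK2, which had 0 counts in each of the 18 libraries. The filter kept a gene with enough counts in any 3 libraries, so the 43 are the members that could be tested and are not the whole list.

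The counts came from bulk RNA-seq of LX-2, an established and immortalised human hepatic stellate cell line, so that all libraries share 1 genotype. Stellate cells are the liver cells that lay down matrix when the liver scars, and thrombin is the protease that ends the clotting cascade and also acts on cell-surface receptors. After 1 h in serum-free medium, thrombin was added at 1 U/mL, or no agent was added, and cells were collected 4, 24 or 48 h later. This gave 6 groups of 3 libraries, labelled control or thrombin at each time, and the controls had no serum either. The question put to the list was how its genes differed between the thrombin and the control label at each time.

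Type I and type III interferons signal through receptor-bound JAK kinases, which phosphorylate STAT proteins. STAT2 and IRF9 are subunits of the complex that binds the interferon-stimulated response element in target promoters, while interferon gamma works through the gamma-activated site. The products include sensors of viral RNA, nucleases and GTPases that restrict viruses, the ubiquitin-like protein ISG15 with its enzymes, and the peptide transporter and proteasome subunits that feed class I antigen presentation. Several of these genes, among them IRF1 and GBP1, also respond to inflammatory cytokines without interferon.

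Promoter sequence was available for 37 of the 44 genes, as 300-base windows from 250 bases before to 50 bases after the RefSeq start in GRCh38.p14. A repeat of the letters GAAA with any 2 bases between the copies, read on both strands, was taken as the response element and occurred in 22 of the 37 windows (59.5%), against 996 of 27305 windows of that length in all (3.65%) and 2.87% of those of the genes tested. The stretches below are shown because they belong to genes with large or contrasting changes between the labels. They lie upstream of the RefSeq start used for the window, run 5′ to 3′ along the gene's own strand, and have the matches in capitals, where TTTC ends mark a match on the opposite strand. For ISG20 and DDX60 that start is internal, and the stretch lies inside the annotated span of the gene.

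GBP1 (chr1:89065306-89065355, minus strand): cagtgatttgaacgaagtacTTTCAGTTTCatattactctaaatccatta
SAMD9 (chr7:93118086-93118135, minus strand): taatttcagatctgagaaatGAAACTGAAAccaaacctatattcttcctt
IFI44 (chr1:78649751-78649788, plus strand): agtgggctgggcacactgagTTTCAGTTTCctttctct
HERC5 (chr4:88456974-88457074, plus strand): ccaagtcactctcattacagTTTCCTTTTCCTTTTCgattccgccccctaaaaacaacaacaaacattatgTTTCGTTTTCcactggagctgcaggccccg
BST2 (chr19:17405725-17405780, minus strand): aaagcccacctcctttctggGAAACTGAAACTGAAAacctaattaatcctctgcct
TAP1 (chr6:32853803-32853858, minus strand): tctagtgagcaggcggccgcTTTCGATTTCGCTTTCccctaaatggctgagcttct
ISG20 (chr15:88638927-88638976, plus strand): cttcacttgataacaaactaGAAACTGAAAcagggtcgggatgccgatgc
DDX60 (chr4:168318776-168318860, minus strand): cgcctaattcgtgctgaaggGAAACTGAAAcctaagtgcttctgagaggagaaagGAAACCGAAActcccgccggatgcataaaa
ISG15 (chr1:1013364-1013419, plus strand): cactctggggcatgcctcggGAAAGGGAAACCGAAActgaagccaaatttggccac
IFIT1 (chr10:89392487-89392549, plus strand): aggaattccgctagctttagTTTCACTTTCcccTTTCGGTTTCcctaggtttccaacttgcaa

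GBP1 and IFI44 both carried TTTCAGTTTC, 127 and 18 bases before the start, and are the members with the largest rise and, after RSAD2, the largest fall at 24 h. BST2 and SAMD9 both carried GAAACTGAAA, which is the same sequence read on the opposite strand, and BST2 held it as a pair sharing 4 bases. ISG20, DDX60, DTX3L, OAS3 and IFIT5 also held that sequence on either strand, so it is not particular to genes with large changes. ISG15 and IFIT1 held matches with other letters and were called at no time. A match of these letters is a description of the sequence, and binding of a factor was not measured. The letters TTCNNNGAA, taken as the gamma-activated site, occurred in 9 of the 37 windows (24.3%) and in 7.88% of all windows, and in 3 members a match to each motif overlapped.

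The 18 libraries held between 14431044 and 23270601 counts, and the 44 genes together took between 0.191% and 0.255% of a library. Of the stellate markers, VIM and COL1A1 were abundant (at least 3129 and 1743 CPM, counts scaled to the same library total), whereas LRAT and LUM reached at most 6 and 10 counts. The other stellate markers lay between, namely COL3A1 (2604 to 8217 counts), TAGLN (357 to 2646), PDGFRB (691 to 1538), COL1A2 (207 to 423), ACTA2 (140 to 338) and DES (22 to 117). Markers of other cell types were mixed. TTR was at 0 throughout, ALB, APOA1, APOB, MARCO and LILRA4 reached at most 2 counts, CD163 1, EPCAM 3, CLEC4C 5 and HNF4A 7. Others were counted in every library, among them SOX9 (1872 to 6121 counts), CD68 (1066 to 1982), TCF4 (969 to 2295), SERPINA1 (59 to 122), KRT7 (69 to 163), CD14 (63 to 202) and PTPRC (16 to 48). All 6 endothelial markers were counted, from CDH5 (2 to 28) to VWF (134 to 381) and TIE1 (470 to 896), and at 24 h PECAM1 fell (-1.25 ± 0.24 on the log2 scale) while CDH5 (1.66 ± 0.47) and KDR (0.93 ± 0.32) rose. KRT7 also rose at 24 h (0.62 ± 0.17). Stellate marker means differed at 24 h as well. Between control and thrombin, TAGLN went from 25.1 to 144 CPM, ACTA2 from 10.8 to 17.6, COL1A1 from 2010 to 2716 and COL1A2 from 15.0 to 22.6. COL3A1 went down from 354 to 214 CPM and PDGFRB from 76.9 to 63.1, where the PDGFRB groups overlapped (60.5 to 95.5 and 54.7 to 70.0 CPM). VIM (3517 and 3609 CPM) and DES (2.65 and 3.51 CPM) also had overlapping groups. The part of all these markers in the results was not tested. The titles number the libraries of a group 12, 13 and 14, and nothing states that these were separate cultures, so the tests measure the spread between libraries, which may be technical. In bulk RNA, fewer responding cells and less RNA per cell cannot be told apart.

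The labels have a feature that bears on every result that follows. Between the libraries labelled thrombin 4 h and those labelled control 24 h, edgeR called 11 of 15353 genes (0.0716%, with 0.0195% higher and 0.0521% lower) and 0 of the 43 members. At an unadjusted p under 0.05, 9 members were lower and 0 higher, where 5.58% of all genes passed (2.59% higher and 2.99% lower). The sets labelled control 4 h and control 24 h differed by the same test in 15.2% of genes. DESeq2 called 1 of the members lower between thrombin 4 h and control 24 h. Of 961 genes called at both 4 and 24 h between thrombin and control, 948 had opposite signs. Whether every library carries its right label was not tested, and times and treatments are named below as the labels give them.

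Across the list, the libraries labelled thrombin were slightly higher than the controls at 4 h, lower at 24 h, and shifted upward at 48 h without any gene passing the test. At 4 h, 8 of 43 genes rose and 1 fell (edgeR adjusted p under 0.05), where 6.29% of all genes tested rose and 5.52% fell (11.8% called). At 24 h, 2 rose and 14 fell, where 9.05% of all genes rose and 8.54% fell (17.6% called). At 48 h none of the 15353 genes was called by edgeR (0%), members included. The share of members called was 20.9% at 4 h and 37.2% at 24 h.

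The median log2 difference of the 43 genes was 0.15 at 4 h, -0.26 at 24 h and 0.18 at 48 h, and the median over all genes tested was 0.00, 0.00 and 0.01. Of the 43, 33 had a positive difference at 4 h, 12 at 24 h and 35 at 48 h. Scaling by library totals alone shifted the 24 h difference of all genes by a median of -0.11 and made the members' count 19 lower. How many of all genes were called lower under that scaling was not counted, so the 19 is no result about the members. In all, 19 members were called at 4 or 24 h, 6 of them at both, and 24 were called at no time. Of all 15353 genes, 1813 were called at 4 h, 2700 at 24 h and 961 at both. The 24 h split of the members therefore leaned to the low side with 14 of 16 calls, where the 2700 calls over all genes were 1389 higher and 1311 lower.

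The 4 h calls of members, like those of all genes, depended on which libraries were used. Without the libraries numbered 13 in every group, 0 members rose at 4 h, without those numbered 14 it was 1, and without those numbered 12 it was 15. Over all genes, the 1813 calls at 4 h became 96 without the libraries numbered 13 and 3560 without those numbered 12. Leaving out 1 library at a time gave 1 member higher without control 13 or control 14, 2 without thrombin 13 and 3 without thrombin 14. A fit on the 4 h libraries alone gave 2. TAP1 and SAMD9 were the 2 calls of 9 kept when any single 4 h library was left out, and both were lost without all libraries numbered 13. At 24 h the count of members that fell was 7 without the libraries numbered 13, 6 without those numbered 14 and 9 without thrombin 14 alone. The 2700 calls over all genes at 24 h became 936 without the libraries numbered 13. GBP1, SAMD9, STAT2, IFI44, BST2 and TRIM22 kept their 24 h call in every alternative tried.

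**Figure D1:**
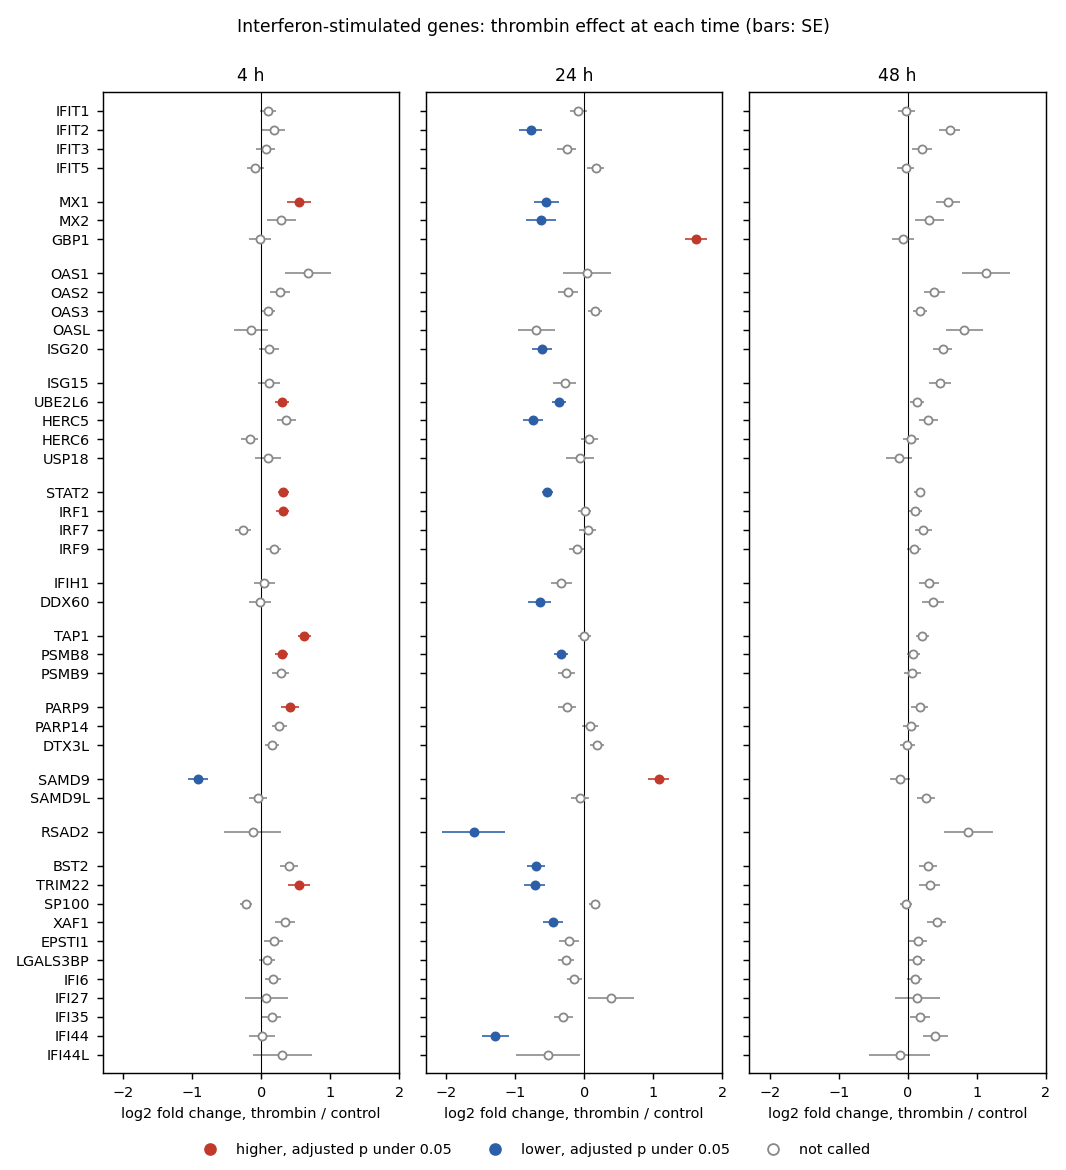
Log2 difference between the libraries labelled thrombin and control (x axis) for the 43 tested interferon-stimulated genes (y axis) at 4, 24 and 48 h, from the edgeR fit over 18 libraries, with bars of 1 SE and filled points where adjusted p was under 0.05. The members sit slightly right of 0 at 4 h, mostly left of 0 at 24 h apart from GBP1 (1.61) and SAMD9 (1.07), and mostly right of 0 at 48 h with no filled point.

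Of the transcription factors, STAT2, a subunit of the complex that binds the response element, rose at 4 h and fell at 24 h. STAT2 stood at 93.6, 78.1 and 80.0 CPM in control libraries 12, 13 and 14 at 4 h and at 105, 99.1 and 109.7 CPM in the thrombin libraries (library order is the same throughout). At 24 h the values of STAT2 were 114, 111 and 114 CPM in controls and 79.3, 80.9 and 73.4 CPM with thrombin. At 48 h they were 99.5, 104 and 102 and 110.1, 118 and 116 CPM. The groups of 3 did not overlap at any of the times, and their order at 24 h was the reverse of that at 4 h. How many of all genes tested separated in this way was not counted. Overlap, here and for the genes below, therefore only describes the libraries and is no test. The log2 difference of STAT2 was 0.32 ± 0.08 at 4 h (edgeR adjusted p = 0.00917), -0.54 ± 0.08 at 24 h (edgeR adjusted p = 2.31e-05) and 0.17 ± 0.08 at 48 h (edgeR adjusted p = 0.655). The 4 h call of STAT2 was lost without control 13 (edgeR adjusted p = 0.0664), control 14 (0.0533) or thrombin 14 (0.0553), and in a fit on the 4 h libraries alone (0.0694).

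IRF1, a factor induced by interferon gamma and by inflammatory cytokines, rose at 4 h, from 89.0, 79.6 and 70.2 CPM to 97.1, 98.0 and 102 CPM. The log2 difference of IRF1 was 0.31 ± 0.09 (edgeR adjusted p = 0.0293), and the lowest thrombin library lay above the highest control. That call was lost in the fit on the 4 h libraries alone (0.0800) and without control 13, control 14, thrombin 13 or thrombin 14 (edgeR adjusted p = 0.0826, 0.170, 0.0720 and 0.114). At 24 h its log2 difference was 0.00 ± 0.09. IRF9, the DNA-binding subunit of that complex with STAT2, had log2 differences of 0.18, -0.11 and 0.09 at the 3 times. IRF7, which amplifies type I interferon transcription, had -0.26, 0.05 and 0.22, and neither of the latter factors was called.

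Among the RNA sensors, DDX60, a helicase that assists RIG-I-like receptors, fell at 24 h. DDX60 read 10.5, 10.8 and 13.3 CPM in controls and 7.40, 7.61 and 7.17 CPM with thrombin at 24 h, and every thrombin library lay below every control. At 4 h it read 7.29, 10.2 and 8.69 CPM in controls and 10.5, 7.62 and 7.81 CPM with thrombin, with the groups overlapping. At 48 h the readings were 12.4, 8.76 and 9.70 CPM and 11.8, 15.7 and 12.1 CPM, which also overlapped. The 24 h log2 difference of DDX60 was -0.65 ± 0.17 (edgeR adjusted p = 0.00812), set beside -0.02 ± 0.16 at 4 h and 0.36 ± 0.16 at 48 h, and the call was lost without control 14 (edgeR adjusted p = 0.0571). IFIH1, which encodes the long double-stranded RNA sensor MDA5, had log2 differences of 0.05, -0.33 and 0.31 and was called at no time in the fit over all libraries.

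The 4 IFIT genes, whose products bind viral RNA and block its translation, lie together on chromosome 10 within the span of LIPA in the RefSeq annotation, and 1 of the 4 changed. IFIT2 (chr10:89302046-89309271) measured 20.6, 22.5 and 26.7 CPM in controls and 16.5, 12.8 and 11.5 CPM with thrombin at 24 h. At 4 h it measured 12.7, 13.6 and 11.3 and 15.2, 13.8 and 13.8 CPM, and at 48 h 20.2, 15.0 and 20.7 and 20.7, 29.5 and 35.0 CPM. Thrombin libraries lay wholly below controls at 24 h, and at 48 h the lowest thrombin library lay level with the highest control and the other two above it. IFIT2 fell 1.72-fold at 24 h, a log2 difference of -0.78 ± 0.17 (edgeR adjusted p = 0.00155), with 0.19 ± 0.17 at 4 h and 0.61 ± 0.16 at 48 h (edgeR adjusted p = 0.295). The 24 h call was lost without the libraries numbered 14 (edgeR adjusted p = 0.0586). IFIT1, IFIT3 and IFIT5 were called at no time, with 24 h log2 differences of -0.09, -0.26 and 0.16. Since the strand setting of the counting is not given, reads of LIPA and of the IFIT genes cannot be told apart where the annotations overlap.

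GBP1, a large GTPase that coats intracellular bacteria, had the largest rise of the 43 genes at 24 h. Its 24 h values were 51.1, 48.2 and 49.0 CPM in controls and 195, 148 and 109.7 CPM with thrombin, so that the lowest thrombin library lay far above the highest control, while the thrombin libraries were spread widely among themselves. At 4 h GBP1 ran at 41.4, 44.3 and 34.2 CPM in controls and 46.5, 40.2 and 31.9 CPM with thrombin, and at 48 h at 77.5, 67.0 and 62.4 and 64.0, 69.1 and 63.7 CPM, with overlap at both times. The rise at 24 h was 3.05-fold, a log2 difference of 1.61 ± 0.16 (edgeR adjusted p = 3.26e-07), against -0.02 ± 0.16 at 4 h and -0.07 ± 0.16 at 48 h.

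The MX genes, neighbours on chromosome 21 that encode dynamin-like GTPases acting on incoming viruses, moved the other way from GBP1 at 24 h. MX1 ran at 4.98, 3.71 and 4.31 CPM in controls and 5.03, 6.61 and 7.28 CPM with thrombin at 4 h, and at 5.41, 7.06 and 7.21 and 5.31, 4.42 and 3.78 CPM at 24 h. Its log2 difference was 0.55 ± 0.18 at 4 h (edgeR adjusted p = 0.0464) and -0.55 ± 0.18 at 24 h (edgeR adjusted p = 0.0386). MX2 differed by -0.63 ± 0.21 at 24 h (edgeR adjusted p = 0.0419) and by 0.29 at 4 h, where it was not called. Both MX calls at 24 h were near the threshold. That of MX1 was lost without control 13, control 14, thrombin 13 or thrombin 14 (edgeR adjusted p between 0.0826 and 0.184), and that of MX2 without any one 24 h library other than thrombin 13 (edgeR adjusted p between 0.0542 and 0.191). The 4 h call of MX1 was lost without control 13, control 14, thrombin 13 or thrombin 14 (edgeR adjusted p between 0.107 and 0.225), with replicate number as a block (edgeR adjusted p = 0.0534) and in the fit on the 4 h libraries alone (0.0757).

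The OAS genes encode the synthetases whose product activates RNase L, and ISG20 encodes an exonuclease of RNA. ISG20 was measured at 13.4, 12.5 and 13.5 CPM in controls and 8.61, 9.99 and 7.39 CPM with thrombin at 24 h. It was measured at 10.1, 9.31 and 7.79 and 8.16, 11.4 and 10.0 CPM at 4 h, and at 9.19, 7.69 and 10.1 and 12.5, 13.7 and 12.1 CPM at 48 h. Thrombin libraries were below all controls at 24 h and above all controls at 48 h, and the groups overlapped at 4 h. ISG20 differed by -0.61 ± 0.14 on the log2 scale at 24 h (edgeR adjusted p = 0.00397), by 0.11 ± 0.14 at 4 h and by 0.50 ± 0.14 at 48 h (edgeR adjusted p = 0.392). Its 24 h call was lost without the libraries numbered 14 (edgeR adjusted p = 0.0890). None of OAS1, OAS2, OAS3 and OASL was called, with 24 h log2 differences from -0.70 (OASL) to 0.15 (OAS3). OAS1, with between 7 and 34 counts per library, had the largest 48 h difference of the 43 genes at 1.14 ± 0.34 (edgeR adjusted p = 0.428). OAS1 read 0.368, 0.801 and 0.953 CPM in controls and 1.79, 1.38 and 1.51 CPM with thrombin at 48 h, groups that did not overlap.

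The ISG15 system attaches the ubiquitin-like ISG15 to proteins through the conjugating enzyme UBE2L6 and the ligase HERC5, and USP18 removes it. UBE2L6 and HERC5 fell at 24 h, while ISG15 itself, HERC6 and USP18 were not called at any time. UBE2L6 stood at 108, 104 and 102 CPM in controls and 91.2, 83.2 and 69.5 CPM with thrombin at 24 h, and HERC5 at 13.5, 14.8 and 13.5 and 9.55, 7.61 and 7.79 CPM. At 4 h the order was the other way, with UBE2L6 at 80.6, 75.9 and 65.3 CPM in controls and 85.5, 91.4 and 97.0 CPM with thrombin, and HERC5 at 9.65, 9.31 and 8.76 and 11.4, 12.5 and 11.9 CPM. In all 4 of these pairs of groups the libraries did not overlap. At 48 h UBE2L6 read 88.5, 89.3 and 87.9 and 103, 102 and 86.1 CPM, and HERC5 9.03, 9.88 and 14.0 and 12.6, 13.8 and 14.0 CPM, and both overlapped.

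The log2 difference of UBE2L6 was 0.30 ± 0.10 at 4 h (edgeR adjusted p = 0.0407) and -0.37 ± 0.10 at 24 h (edgeR adjusted p = 0.00891). Its 4 h call was lost without control 13, control 14, thrombin 13 or thrombin 14 (edgeR adjusted p between 0.0824 and 0.211) and in the fit on the 4 h libraries alone (0.0937), and its 24 h call without thrombin 14 (0.0900). HERC5 differed by -0.75 ± 0.14 at 24 h (edgeR adjusted p = 4.55e-04) and by 0.36 ± 0.14 at 4 h, where it did not pass the test (edgeR adjusted p = 0.0857). The 24 h call of HERC5 was lost without the libraries numbered 13 (edgeR adjusted p = 0.0630). ISG15 had log2 differences of 0.12, -0.29 and 0.46 at the 3 times, and at 24 h HERC6 had 0.07 and USP18 -0.07. At 24 h ISG15 ranged from 41.6 to 66.1 CPM over the thrombin libraries and from 65.7 to 66.6 CPM over the controls.

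TAP1, a subunit of the transporter that carries peptides to class I molecules, had the largest rise among the genes called at 4 h. TAP1 measured 53.6, 48.3 and 48.5 CPM in controls and 73.1, 79.0 and 79.8 CPM with thrombin at 4 h, with no overlap. At 24 h it measured 85.0, 77.9 and 78.4 CPM and 89.8, 84.0 and 67.0 CPM, and at 48 h 68.6, 66.7 and 72.9 CPM and 84.0, 79.1 and 77.7 CPM. The 24 h groups overlapped, and at 48 h the thrombin libraries lay above the controls. TAP1 rose 1.54-fold at 4 h, a log2 difference of 0.63 ± 0.09 (edgeR adjusted p = 8.41e-05), and differed by 0.00 ± 0.09 at 24 h and 0.21 ± 0.09 at 48 h. The 4 h call was lost without the libraries numbered 13 (edgeR adjusted p = 0.0643). Unlike in STAT2 and UBE2L6, no fall was called at 24 h, though the change in its thrombin effect from 4 to 24 h was itself called at -0.63.

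PSMB8 and PSMB9, the catalytic subunits of the immunoproteasome, flank TAP1 on chromosome 6, each under 1 kb from it. PSMB8 rose at 4 h by 0.30 ± 0.10 (edgeR adjusted p = 0.0470) and fell at 24 h by 0.34 ± 0.10 (edgeR adjusted p = 0.0166). At 4 h PSMB8 ran from 36.1 to 48.9 CPM in controls and from 47.4 to 55.1 CPM with thrombin, and at 24 h from 51.6 to 58.6 and from 43.7 to 44.3 CPM. The first call of PSMB8 was lost without control 13, control 14, thrombin 13 or thrombin 14 (edgeR adjusted p between 0.119 and 0.246), and without the low-count filter (0.0606) or on the 4 h libraries alone (0.137). The second was lost without control 12, control 13 or thrombin 14 (0.0820, 0.0619 and 0.0565). PSMB9 had log2 differences of 0.28 and -0.26 at those times and was not called. TAP1 and PSMB8 overlap the antisense gene PSMB8-AS1 in the annotation, whose reads could not be separated here.

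PARP9 and its partner DTX3L form an ADP-ribosyl and ubiquitin transferase, and PARP14 is a related enzyme. PARP9 rose at 4 h by 0.42 ± 0.13 (edgeR adjusted p = 0.0370), with 24.3, 20.3 and 19.7 CPM in controls and 31.5, 30.9 and 23.3 CPM with thrombin, groups that overlapped. The call was lost in the fit on the 4 h libraries alone (0.0551) and without any one of 4 libraries, control 13, control 14, thrombin 12 and thrombin 13 (edgeR adjusted p between 0.108 and 0.145). Neither DTX3L (0.15) nor PARP14 (0.26) was called at 4 h, and at 24 h the values of PARP9, PARP14 and DTX3L were -0.26, 0.07 and 0.18. PARP9 and DTX3L overlap at their ends in the annotation.

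SAMD9, a cytoplasmic factor that restricts poxviruses, behaved opposite to most of the list at both times. SAMD9 (chr7:93099518-93117979) measured 149, 223 and 226 CPM in controls and 119.9, 100.3 and 97.2 CPM with thrombin at 4 h. At 24 h it measured 81.8, 101 and 120.5 CPM and 221, 208 and 209 CPM, and at 48 h 122, 125 and 112 CPM and 92.1, 115 and 126 CPM. Thrombin libraries were below all controls at 4 h and above all controls at 24 h, and the groups overlapped at 48 h. SAMD9 fell 1.89-fold at 4 h, a log2 difference of -0.91 ± 0.15 (edgeR adjusted p = 3.30e-04), and rose 2.10-fold at 24 h, a log2 difference of 1.07 ± 0.15 (edgeR adjusted p = 2.14e-05). At 48 h the difference was -0.11 ± 0.15. The 4 h call of SAMD9 was lost without the libraries numbered 13 (edgeR adjusted p = 0.0955). Its paralogue SAMD9L lies 12.1 kb away on chromosome 7 and was called at no time, with -0.05, -0.06 and 0.27. SAMD9L ranged from 25.9 to 41.5 CPM over the 18 libraries. The chromosome 7 neighbours were not tested against each other.

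RSAD2, which encodes the antiviral radical enzyme viperin, was close to the limit of detection with 4 to 37 counts per library. At 24 h RSAD2 read 1.07, 0.858 and 1.56 CPM in controls and 0.404, 0.272 and 0.451 CPM with thrombin, and at 48 h 1.10, 1.44 and 0.448 and 1.48, 1.89 and 2.19 CPM. It fell by 1.61 ± 0.46 on the log2 scale at 24 h (edgeR adjusted p = 0.0158) and differed by 0.88 ± 0.35 at 48 h. The 24 h call was lost without control 14 (0.0884) or thrombin 13 (0.0587). CMPK2, a nucleotide kinase gene whose annotation overlaps that of RSAD2, was the member at 0 counts, which allows at most 3 counts, or between 0.129 and 0.208 CPM by library, for counting error alone. That limit holds only if the counting could assign reads to CMPK2, which was not tested.

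The other restriction factors and small induced genes fell at 24 h where they changed. BST2 encodes tetherin, which holds budding virions at the cell surface. BST2 read 102, 90.9 and 73.4 CPM in controls and 52.7, 60.3 and 50.7 CPM with thrombin at 24 h, 70.9, 55.2 and 45.3 and 65.9, 78.1 and 82.3 CPM at 4 h, and 60.7, 57.6 and 58.0 and 79.6, 73.1 and 63.8 CPM at 48 h. The groups did not overlap at 24 h or 48 h and overlapped at 4 h. BST2 differed by -0.70 ± 0.13 at 24 h (edgeR adjusted p = 5.72e-04), by 0.40 ± 0.13 at 4 h (edgeR adjusted p = 0.0504) and by 0.30 ± 0.13 at 48 h. The 4 h difference of BST2 passed the test without control 12 (edgeR adjusted p = 0.00321) or thrombin 12 (0.0267), with DESeq2 (0.0298), with library totals (0.0399), with replicate number as a block (0.0256) and without the low-count filter (0.00239).

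TRIM22, a tripartite-motif ubiquitin ligase with antiviral activity, rose at 4 h and fell at 24 h. TRIM22 stood at 10.5, 9.09 and 6.68 CPM in controls and 13.5, 13.9 and 11.2 CPM with thrombin at 4 h. It stood at 19.6, 14.7 and 15.9 CPM and 11.8, 10.3 and 8.41 CPM at 24 h, and at 13.2, 11.9 and 10.6 CPM and 15.7, 15.2 and 13.5 CPM at 48 h. At each time the 2 groups did not overlap, with thrombin higher at 4 and 48 h and lower at 24 h. Its log2 difference was 0.55 ± 0.15 at 4 h (edgeR adjusted p = 0.0214), -0.72 ± 0.15 at 24 h (edgeR adjusted p = 0.00157) and 0.32 ± 0.15 at 48 h (edgeR adjusted p = 0.679). The 4 h call was lost without control 13 (0.0564), control 14 (0.131) or thrombin 13 (0.0907).

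IFI44 (chr1:78649789-78664078) had the largest fall at 24 h after that of RSAD2. IFI44 measured 9.76, 11.9 and 15.7 CPM in controls and 4.51, 5.98 and 4.85 CPM with thrombin at 24 h, with no overlap. At 4 h it measured 8.00, 10.1 and 6.61 and 9.32, 8.73 and 7.07 CPM, and at 48 h 8.72, 9.51 and 10.5 and 9.25, 14.1 and 14.5 CPM, with overlap at both. IFI44 fell 2.45-fold at 24 h, a log2 difference of -1.29 ± 0.20 (edgeR adjusted p = 4.05e-05), and differed by 0.01 ± 0.19 at 4 h and 0.40 ± 0.18 at 48 h. Its neighbour IFI44L, 3.6 kb away, had 5 to 18 counts per library and a 24 h log2 difference of -0.53 ± 0.46 that was not called. XAF1, a promoter of apoptosis, fell by 0.45 ± 0.14 at 24 h (edgeR adjusted p = 0.0301), a call lost without control 12, control 13, control 14, thrombin 13 or thrombin 14 (edgeR adjusted p between 0.0557 and 0.163). Among the rest, SP100, EPSTI1, LGALS3BP, IFI6, IFI27 and IFI35 were called at no time in the fit over all libraries. Their 24 h log2 differences ran from -0.31 (IFI35) to 0.39 (IFI27). At 24 h LGALS3BP passed with library totals (edgeR adjusted p = 0.0201) or without the low-count filter (0.0177), as did IFI35 (0.0415 and 0.0380). At 4 h IFI6 passed without control 12 (edgeR adjusted p = 0.0186) and SP100 without thrombin 12 (0.0310).

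**Figure D2:**
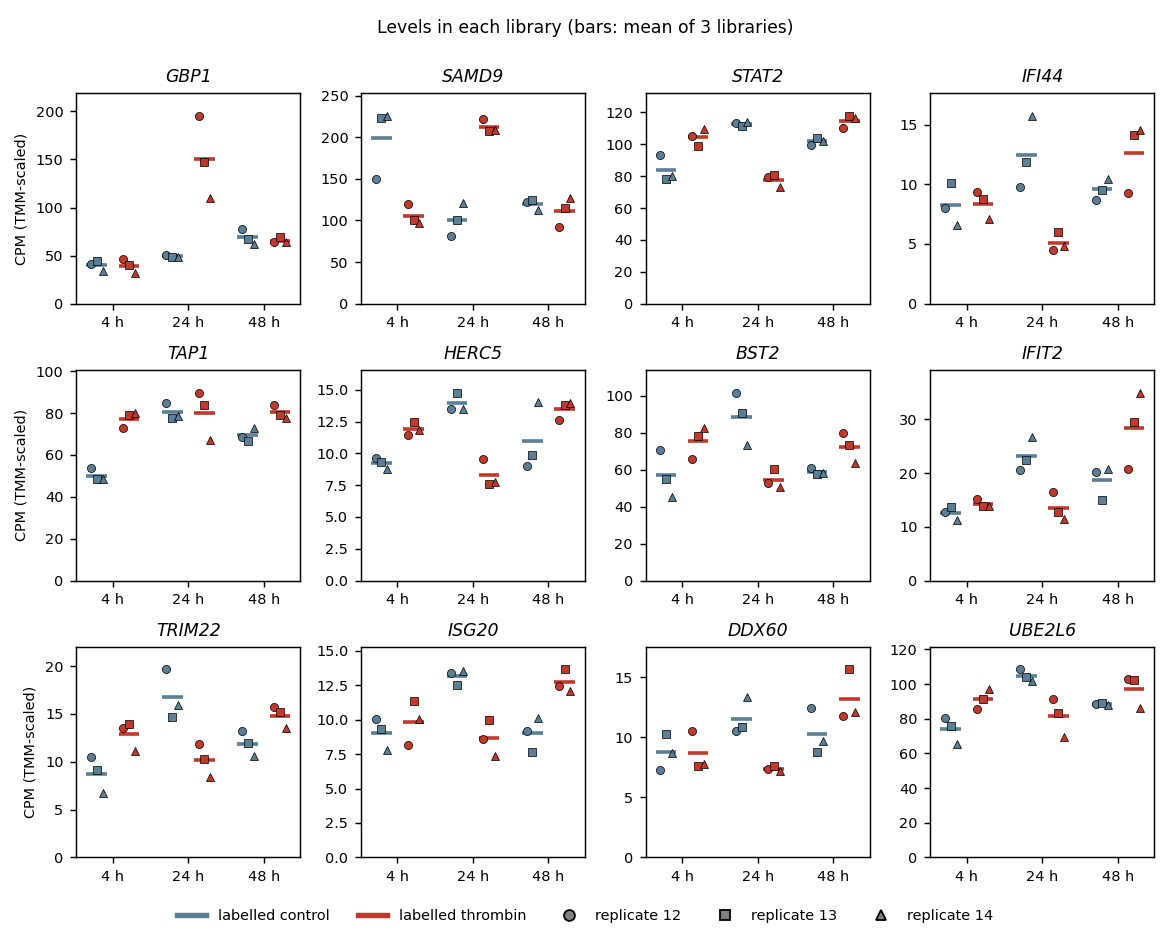
Level in TMM-scaled CPM (y axis) of 12 interferon-stimulated genes in each of the 18 libraries, by label and time (x axis). Each point is 1 library and each bar the mean of 3, and for GBP1 the 3 thrombin 24 h libraries (109.7 to 195 CPM) stand above all others, while for IFI44 the same libraries (4.51 to 5.98 CPM) are the lowest.

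The change of the thrombin effect between times was tested directly. The thrombin effect at 24 h minus that at 4 h was called for 19 of the 43 genes, 3 higher and 16 lower, where 28% of all genes were called (13.6% higher and 14.3% lower). Without the libraries numbered 13 or those numbered 14, the count of members lower was 9 in each case. The 4293 calls over all genes became 1585 without the libraries numbered 13. MX1, UBE2L6, STAT2, PSMB8 and TRIM22 rose at 4 h and fell at 24 h, and SAMD9 fell and then rose, so all 6 members called at both times changed sign. Of all genes called at both times, 948 of 961 (98.6%) changed sign too, so this is not particular to the members. The effect at 48 h minus that at 24 h was called for 20 genes, 18 higher and 2 lower, where 13.8% of all genes were called (7.16% higher and 6.68% lower). Without the libraries numbered 13, 7 members were higher, and the 2126 calls over all genes became 522. The pair that was lower was GBP1 (-1.68 ± 0.22) and SAMD9 (-1.18 ± 0.21). Between 4 and 48 h the effect differed for 0 of the 43 by edgeR (0.632% of all genes, 0.475% higher and 0.156% lower). At an unadjusted p under 0.05, 3 were higher and 1 lower, where 11.6% of all genes passed (6.1% higher and 5.52% lower). DESeq2 called 1 higher and the fit without a low-count filter 1.

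At 48 h, 17 of the 43 genes were higher and 0 lower at an unadjusted p under 0.05, where 4.25% of all genes were higher and 2.98% lower by that rule (7.23% together). They included IFIT2, OAS1, OAS2, OASL, ISG20, ISG15, HERC5, STAT2, IFIH1, DDX60, TAP1, RSAD2, BST2, TRIM22, XAF1, MX1 and IFI44, and the largest difference was that of OAS1 (1.14 ± 0.34). None passed after adjustment, with edgeR adjusted p between 0.295 (IFIT2) and 0.679 (TRIM22). DESeq2 called 14 genes of the whole table at 48 h and 0 members, and edgeR without the low-count filter called 50 genes and 2 members, IFIT2 (0.00441) and ISG15 (0.0187). The 17 became 5 without the libraries numbered 13, 8 without thrombin 13, 10 without control 13 or control 14, and 11 without control 12. GBP1, the gene with the largest rise at 24 h, differed by -0.07 ± 0.16 at 48 h.

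The controls also differed between the times. Between the libraries labelled control 4 h and control 24 h, 17 of the 43 genes rose and 1 fell, where 8.1% of all genes rose and 7.15% fell (15.2% called), with a median log2 difference of 0.36. The gene that fell was SAMD9 (-0.98 ± 0.15, edgeR adjusted p = 1.07e-04), and the largest rises were in TRIM22 (0.93 ± 0.15) and IFIT2 (0.89 ± 0.16). The count of 17 became 3 without the libraries numbered 13, 10 without those numbered 14 and 9 without control 4 h library 14. The 2340 calls over all genes in this comparison became 379 without the libraries numbered 13. This comparison and the thrombin comparisons at 4 and 24 h share the same control libraries. From control 24 h to control 48 h, 0 rose and 6 fell (2.69% and 3.43% of all genes, 6.12% together), namely ISG20 (-0.55), ISG15 (-0.60), IRF7 (-0.40), BST2 (-0.59), TRIM22 (-0.49) and LGALS3BP (-0.39). That 6 fell to 0 without the libraries numbered 13, without control 24 h library 12 or without control 24 h library 13, to 1 without control 48 h library 12 or 13, and to 2 without the libraries numbered 12. Over all genes, the 940 calls from control 24 h to control 48 h became 16 without the libraries numbered 13.

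The list was also followed along the thrombin labels. From thrombin 4 h to thrombin 24 h, 2 of the 43 genes rose and 4 fell (7.85% and 7.28% of all genes, 15.1% together), so that the share of members called was near that of all genes. GBP1 (1.93 ± 0.16) and SAMD9 (1.01 ± 0.15) rose, and IFI44 (-0.72 ± 0.20), HERC5 (-0.52 ± 0.14), BST2 (-0.47 ± 0.13) and STAT2 (-0.43 ± 0.08) fell. The 4 became 7 without the libraries numbered 12, 2 without those numbered 14, and 1 without those numbered 13, without thrombin 4 h library 13 or without thrombin 24 h library 14. The 2322 calls over all genes became 585 without the libraries numbered 13. From thrombin 24 h to thrombin 48 h, 10 rose and 2 fell (4.31% and 5.41% of all genes, 9.72% together), the 2 being GBP1 (-1.20 ± 0.16) and SAMD9 (-0.94 ± 0.15). The largest rises were in RSAD2 (2.26 ± 0.43), IFI44 (1.31 ± 0.20) and IFIT2 (1.07 ± 0.16). The 10 became 4 without the libraries numbered 13 and 6 without those numbered 14, without thrombin 24 h library 14 or without thrombin 48 h library 13. Here the 1492 calls over all genes became 344 without the libraries numbered 13.

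Set against the controls at 4 h, the thrombin 24 h libraries had 5 members higher and 0 lower (2.37% and 0.97% of all genes, 3.34% together). At an unadjusted p under 0.05, 2 were lower, where 15.3% of all genes passed (8.79% higher and 6.52% lower). DESeq2 called 1 lower. The 5 were GBP1 (1.91 ± 0.16), TAP1 (0.68 ± 0.09), DTX3L (0.45 ± 0.11), IRF1 (0.43 ± 0.09) and PARP14 (0.42 ± 0.12). They became 2 without the libraries numbered 13, and 3 without those numbered 12, without control 4 h library 12 or 14, or without thrombin 24 h library 12. The 513 calls over all genes became 110 without the libraries numbered 13. None of the 14 genes that fell at 24 h against the 24 h controls was called against the 4 h controls in the fit over all libraries. The 10 most abundant genes took 5.16% to 5.51% of the counts in the thrombin 24 h libraries, 4.10% to 4.19% in control 24 h, 4.55% to 4.93% in control 4 h and 4.00% to 4.12% in thrombin 4 h, and the part of this composition in the results was not tested.

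**Figure D3:**
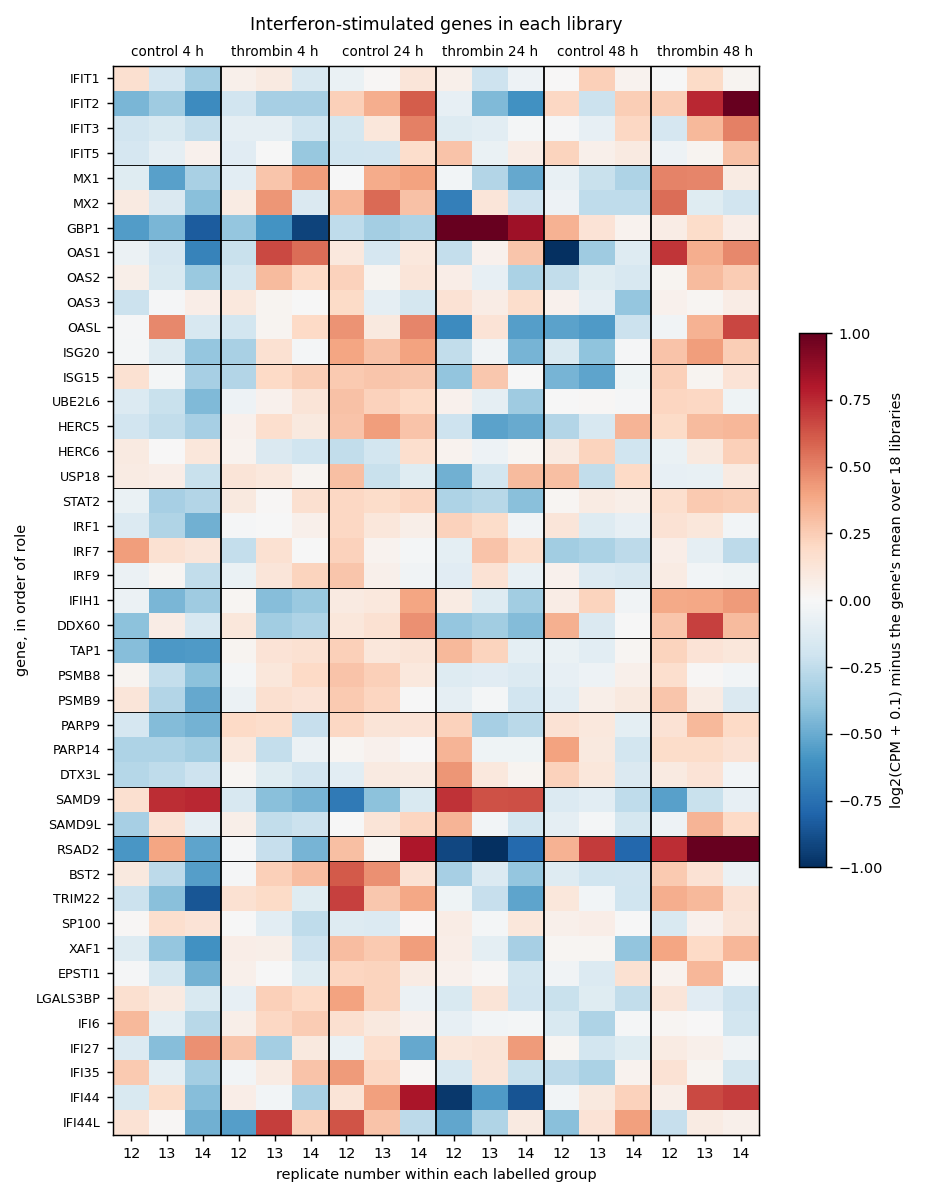
Heat map of 43 interferon-stimulated genes (rows, by role) in the 18 libraries (columns, by label and time), as log2 CPM with 0.1 added, minus the gene's mean over all libraries, with colours saturating at 1. Many rows are below their mean in control 4 h and thrombin 24 h and above it in control 24 h and thrombin 48 h, and the rows of GBP1 and SAMD9 run the other way in the thrombin 24 h columns.

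The response element letters were counted among members by their calls. Of the members with a promoter window, 6 of 11 that fell at 24 h held a match (54.5%), as did 2 of 2 that rose and 14 of 23 that were not called at 24 h (60.9%). Of those that rose at 4 h, 2 of 7 held a match (28.6%), and of those not called at 4 h, 19 of 28 did (67.9%). IRF1, STAT2, UBE2L6, PSMB8, PARP9, RSAD2 and XAF1 are the members that changed and had no match in this window, which says nothing of elements elsewhere. In 13 members the window held 2 or more matches. These shares describe a list chosen for its known response to interferon and were not tested.

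**Figure D4:**
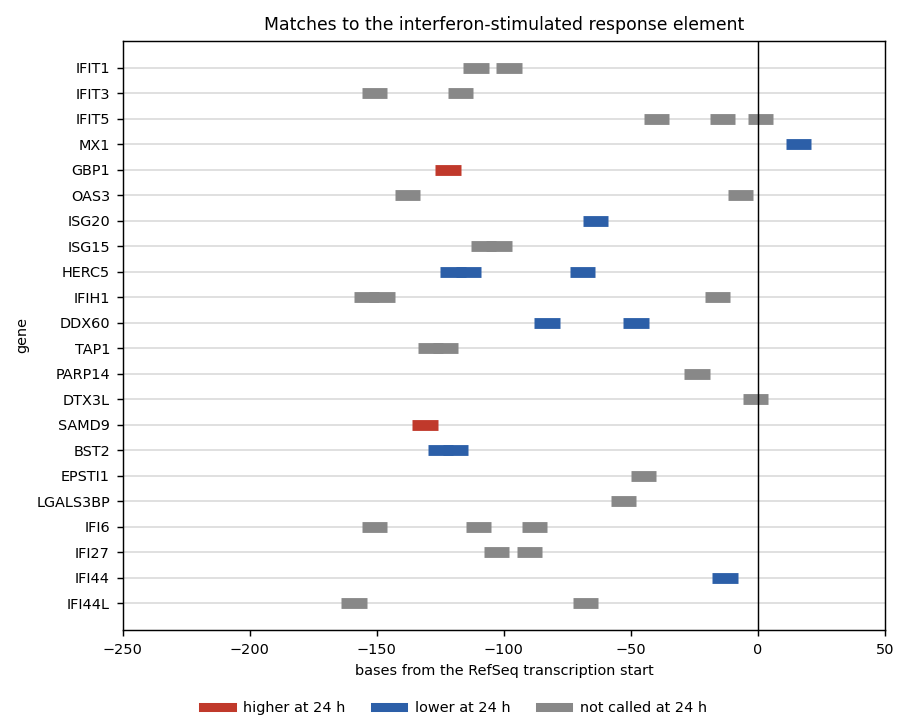
Position of each match to the response element letters relative to the RefSeq start (x axis, bases) in the 22 interferon-stimulated genes that had one (y axis), coloured by the 24 h call between thrombin and control labels. Matches lie mostly in the 150 bases before the start, and genes that fell, rose or were not called are mixed along the axis.

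Upstream of the list, interferon transcripts were nearly absent. Of 21 interferon genes, 1 could be tested, IFNE, which had 15 to 82 counts per library and was called at no time. IFNB1, the type I interferon that most cell types can make, had 1 count in the 18 libraries together, and IFNG had 0. Of 6 receptor genes, IFNGR2, a chain of the interferon gamma receptor, rose at 4 h (0.37 ± 0.10, edgeR adjusted p = 0.0140), and IFNLR1, a chain of the type III receptor, fell at 24 h (-0.46 ± 0.15, edgeR adjusted p = 0.0359). IFNAR1 and IFNAR2, the chains of the type I receptor, had 24 h log2 differences of 0.01 ± 0.09 and 0.07 ± 0.10 and were called at no time. The call of IFNGR2 was lost without control 14, thrombin 13 or thrombin 14 at 4 h, and that of IFNLR1 without control 12, control 13 or thrombin 14 at 24 h and in the fit on the 24 h libraries alone.

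Of the 3 kinases tested, which pass the signal from the receptors to STAT proteins, JAK1 rose at 24 h and none was called at 4 h. JAK1 differed by 0.27 ± 0.09 at 24 h (edgeR adjusted p = 0.0372), whereas TYK2 was not called (0.18 ± 0.08). The JAK1 call was lost when library totals replaced TMM scaling (edgeR adjusted p = 0.185). It was also lost without control 12, control 13, thrombin 12 or thrombin 14 (edgeR adjusted p between 0.0838 and 0.144).

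Counts in the lists that follow are read against the shares of all genes given above, 6.29% higher and 5.52% lower at 4 h and 9.05% higher and 8.54% lower at 24 h. Among negative regulators, 2 of 9 rose at 24 h and 1 fell at 4 h. The 2 became 0 without control 12 or thrombin 14, 1 without control 13 or thrombin 12, and 0 with library totals, and the 1 became 0 without control 12, control 14, thrombin 13 or thrombin 14. PTPN2, a phosphatase of JAK and STAT proteins, differed by -0.43 ± 0.12 at 4 h (edgeR adjusted p = 0.0249) and 0.41 ± 0.13 at 24 h (edgeR adjusted p = 0.0289), and PTPN11, the phosphatase SHP2, by 0.29 ± 0.08 at 24 h (edgeR adjusted p = 0.0156). Of 13 sensing and induction genes, IRF3 rose at 4 h (0.48 ± 0.11), and IFI16, a DNA sensor (-0.54 ± 0.10), DHX58, a relative of RIG-I (-0.52 ± 0.10), and TLR3, an endosomal RNA receptor (-0.99 ± 0.33), fell at 24 h. The 1 that rose became 0 without control 14 or thrombin 14, 2 without thrombin 12, and 3 with library totals or DESeq2. The 3 that fell became 2 without control 13, control 14 or thrombin 14 and in the fit on the 24 h libraries alone, and 6 with library totals. IRF3 and TLR3 are named beyond the naming rule, after their values were seen.

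Of 13 further class I presentation genes, 2 rose at 4 h, TAP2 (0.37 ± 0.08) and PSMB10 (0.50 ± 0.14). At 24 h 3 fell, HLA-B (-0.40 ± 0.10), HLA-C (-0.30 ± 0.10) and B2M (-0.32 ± 0.10), and NLRC5, the transactivator of class I genes, rose (0.51 ± 0.11, edgeR adjusted p = 0.00121). The 2 that rose became 5 without control 12, 1 without control 13, control 14 or thrombin 14, and 0 without all libraries numbered 13. The 3 that fell became 0 without control 12 or thrombin 14, 1 without control 13, 2 without control 14, 5 without the low-count filter or on the 24 h libraries alone, and 6 with library totals, and the rise of NLRC5 was lost without all libraries numbered 13. All of these except NLRC5 and TAP2 are named after their values were seen, and the HLA genes share sequence, so that how the counting divided their reads is uncertain.

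Of 27 other interferon-stimulated genes outside the 44, 5 rose and 1 fell at 4 h and 4 rose and 5 fell at 24 h. At 4 h the 5 became 0 without control 14 or thrombin 13, 1 without control 13 and 2 without thrombin 14, and the 1 became 0 without control 13 and 2 without the low-count filter. At 24 h the 5 became 1 without control 12, 2 without thrombin 14, 3 without control 13 and 8 with library totals, and the 4 became 2 without thrombin 12 or with library totals. Without all libraries numbered 13, 0 rose at 4 h, and 1 rose and 2 fell at 24 h. WARS1, a tRNA synthetase induced by interferon gamma, was lower at 4 h (-0.31 ± 0.08) and higher at 24 h (0.48 ± 0.08, edgeR adjusted p = 1.68e-04), and TRIM25, the ubiquitin ligase acting on RIG-I, rose at 24 h (0.40 ± 0.08). At 48 h none of the 72 pathway genes tested was called.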

How the data were processed

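The series holds 18 RNA-seq libraries of LX-2 cells in 6 groups of 3, grouped by their titles. The deposited table gives raw counts per gene symbol as whole numbers with no normalization visible, and 0 columns were unmapped. Per the labels' protocols, poly(A) RNA was selected. The submitters' processing notes list build GRCh38 and the tools SAMtools 1.21, Bowtie2 2.5.4, DESeq2 and cutadapt 4.9, without their roles. The counter, annotation and strand setting are not given in the sources used here, so counts of overlapping, antisense or near-identical genes are uncertain.

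From these counts, edgeR 4.0.16 in R 4.3.3 kept genes by filterByExpr (minimum count 10, minimum total 15), scaled libraries by TMM (0.945 to 1.031) and fitted its robust quasi-likelihood model, 1 mean for each group, over the 18 libraries (12 residual degrees of freedom). Two-sided p-values were adjusted by Benjamini-Hochberg over 15353 genes, and a gene is said to be called, to rise or to fall at an adjusted p under 0.05. Levels are TMM-scaled CPM, and errors of log2 differences are SE. Within a group the libraries differed by more than counting noise and were counted as 3. Intervals and limits for 0 counts cover counting error only.

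The members and gene lists were chosen with earlier results of these data known. Full values are given for the 12 members with the smallest adjusted p among those called between thrombin and control, and per pathway list for up to 2 genes with the smallest adjusted p, plus IFNB1, IFNAR1, IFNAR2, JAK1 and TYK2. Other members are given by their values and calls, and any other pathway gene is said to be chosen after its values were seen. Of the 104 pathway symbols kept in the lists, 101 were in the table and 72 were tested, and results of some pathway genes are not reported here. Promoter windows came from RefSeq, GRCh38.p14, for 37 of 44 members matched by symbol, and in 7 no window was used.

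Alternatives were RLE size factors, library totals, no low-count filter, replicate number as a block, only the groups compared, DESeq2 1.42.0, and leaving out each library or each library number. The count at an unadjusted p at 48 h was added after seeing the data. The procedure was tested on simulated data.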

Additional observations from a re-analysis of the deposited data

Results flagged for a closer look

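The thrombin effect of 24 interferon-stimulated genes differed between times by an edgeR test of the difference itself, as log2 differences of differences. These were 19 members between 4 and 24 h, where 28% of all genes were called, and 20 between 24 and 48 h, where 13.8% were. The share of all genes called in at least 1 of these comparisons was not counted. The effect at 24 h minus that at 4 h was positive for SAMD9 (1.99), GBP1 (1.63) and SP100 (0.37), of which SP100 was called at neither time alone. Among genes of the response element complex and the ISG15 system, it was -0.86 for STAT2, -0.67 for UBE2L6 and -1.11 for HERC5. In the antigen processing genes and PARP9 it was -0.63 for TAP1, -0.64 for PSMB8, -0.55 for PSMB9 and -0.68 for PARP9. Among antiviral effectors it was -1.27 for TRIM22, -1.10 for BST2, -1.10 for MX1, -0.92 for MX2, -0.97 for IFIT2, -0.72 for ISG20, -0.63 for DDX60, -1.30 for IFI44 and -0.79 for XAF1.

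The effect at 48 h minus that at 24 h was negative for GBP1 (-1.68) and SAMD9 (-1.18). It was 0.71 for STAT2, 0.50 for UBE2L6, 1.04 for HERC5, 0.75 for ISG15 and 0.42 for PSMB8. Among effectors it was 2.48 for the low-count gene RSAD2, 1.69 for IFI44, 1.52 for OASL, 0.62 for OAS2, 1.39 for IFIT2, 1.13 for MX1, 0.94 for MX2 and 1.11 for ISG20. It was 1.04 for TRIM22, 1.00 for BST2, 1.01 for DDX60, 0.65 for IFIH1 and 0.87 for XAF1. These differences rest on libraries labelled as above, whose thrombin 4 h and control 24 h sets differed in 11 of 15353 genes.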

How the results depend on the processing

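No direction of a member called between thrombin and control at the same time reversed under any alternative tried. The other comparisons were not checked for reversal, and no cause of a changed count was tested. Counts of members in this paragraph are given without the share of all genes called in the same fit. They therefore describe the dependence on processing and are no result about the members. Fitting only the groups compared gave 2 members higher at 4 h (8 over all libraries), and from control 24 h to control 48 h 1 higher and 11 lower (0 and 6), and 1 lower between thrombin 4 h and control 24 h (0). Without the low-count filter, 2 members were higher at 48 h, 1 was higher from control 24 h to control 48 h, 2 were lower between thrombin 4 h and control 24 h, 1 was lower between thrombin 24 h and control 4 h, and 1 was higher for the effect at 48 h minus that at 4 h. DESeq2 gave 1 in each of the last 4 of these comparisons. Library totals gave 1 lower between thrombin 24 h and control 4 h. RLE size factors moved no count of members by over 1.5 times. Some members not called over all libraries passed under an alternative, at 4 h OAS1, OAS2, ISG15, PSMB9, SP100, IFI6, IFI35 and BST2. At 24 h these were IFIT3, OASL, ISG15, IFIH1, PSMB9, PARP9, LGALS3BP and IFI35, and at 48 h IFIT2 and ISG15.

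Leaving out libraries gave ranges of 0 to 15 higher and 0 to 2 lower at 4 h, 6 to 16 lower at 24 h (2 higher throughout), and 0 to 1 higher at 48 h, where the count at an unadjusted p ran from 5 to 18. Between controls it gave 3 to 21 higher from 4 to 24 h, and 0 to 1 higher and 0 to 6 lower from 24 to 48 h. Along the thrombin labels it gave 1 to 7 lower from 4 to 24 h and 4 to 15 higher from 24 to 48 h. Between thrombin 4 h and control 24 h it gave 0 to 2 lower, and between thrombin 24 h and control 4 h 2 to 5 higher and 0 to 1 lower. For the effect at 24 h minus at 4 h it gave 9 to 20 lower, at 48 h minus at 4 h 0 to 4 higher and 0 to 3 lower, and at 48 h minus at 24 h 7 to 18 higher. Calls over all genes between thrombin and control ranged from 96 to 3560 at 4 h and from 936 to 2489 at 24 h. At 48 h they ranged from 0 to 5. Between controls they ranged from 379 to 2314 and from 16 to 1135, and along the thrombin labels from 585 to 2970 and from 344 to 1973. Between thrombin 4 h and control 24 h the range was 0 to 78, and between thrombin 24 h and control 4 h 110 to 546. For the 3 changes of effect, in the order above, it was 1585 to 4710, 0 to 1133 and 522 to 2245.

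Same-numbered control and thrombin libraries correlated in their deviations from group means between -0.09 and 0.06, and differently numbered ones between -0.14 and 0.13. With 3 libraries in a group, these values cannot decide whether a number marks a shared culture or batch. With replicate number as a block, 8 members were higher at 4 h and 14 lower at 24 h, as without it, and 1 was higher from control 24 h to control 48 h and 1 lower between thrombin 24 h and control 4 h. Depth limited RSAD2, OAS1, OASL, IFI27 and IFI44L, with at most 65 counts per library.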
